A study of Mus musculus with 50 samples.

Results

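Transcripts of 10 genes of the unfolded protein response and the integrated stress response were followed across mouse liver and liver tumours by RNA sequencing. They were Hspa5, Xbp1, Dnajb9, Herpud1, Atf3, Atf4, Ddit3, Trib3, Asns and Chac1, taken by gene symbol, and each matched 1 of the 45792 rows of the count table. The samples came from male C3H/He mice, a strain prone to liver tumours, harvested at 48 weeks, on either a control diet or the ALIOS diet, an American lifestyle diet rich in trans-fat with fructose in the drinking water. Of 50 libraries, 12 came from non-tumour liver of control diet mice and 11 from non-tumour liver of ALIOS mice. Tumours that arose without a carcinogen gave 13 libraries from ALIOS mice and 1 from a control diet mouse. A further 5 tumours of control diet mice and 8 of ALIOS mice came from animals also given DEN (diethylnitrosamine), a liver carcinogen. Non-tumour liver of mice given DEN was not analysed here, so each tumour group was set against the livers of mice on the same diet, and DEN and tumour could not be told apart in those comparisons. The labels do not say which livers and tumours came from the same mouse, or that each library came from a separate one, so p-values measure the spread between these libraries. Libraries are named N1 to N23 for livers and T1 to T27 for tumours, as labelled.

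When misfolded proteins collect in the endoplasmic reticulum (ER), the sensors IRE1 (gene Ern1), PERK (Eif2ak3) and ATF6 start the unfolded protein response, which raises chaperones such as BiP (Hspa5), the splicing-regulated factor XBP1, the co-chaperone ERdj4 (Dnajb9) and the degradation factor HERP (Herpud1). PERK and its relatives that sense amino acid shortage, haem shortage or viral RNA also phosphorylate eIF2alpha, which slows translation in general and favours translation of ATF4, the centre of the integrated stress response. ATF4 acts with ATF3 and CHOP (Ddit3) on genes such as Trib3, a pseudokinase that feeds back on the pathway, Asns, which makes asparagine, and Chac1, which degrades glutathione. Liver cells secrete much protein, so their ER chaperones are abundant at rest. Splicing of Xbp1 and translation of Atf4 are not visible in gene counts, which give only the level of each mRNA.

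The 50 libraries held 23798251 to 45751398 counts in genes (median 32312653), and all 10 genes passed the filter on low counts in every comparison. Tumour T1 was left out of all comparisons because its summed kidney markers reached 30700 counts per 1000000 (CPM, counts scaled to library size) against at most 24.2 in any other library, while its hepatocyte markers summed to 3840. The other libraries carried the hepatocyte programme (15 of 16 listed markers found), with sums of 124000 to 181000 CPM in control diet livers and 89200 to 282000 in the DEN tumours on the ALIOS diet. Tumour T24 had the lowest of these sums, and with it the highest sums of its group for macrophage markers (860) and for stellate cell and matrix markers (1230). In whole tissue, fewer cells of a type and less RNA per cell cannot be told apart.

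Promoter sequence is shown for the 5 genes that held a known stress element in the 250 bases before their start site, because these elements are the known docking sites of the factors named above. RefSeq promoters (GRCm38.p6) were found for all 10 genes, and 1 start site a gene was searched. For Atf3 that site lay inside the span of the gene model (191170296 to 191218039, minus strand), far from its 5′ end. The search covered 4 elements on both strands. The endoplasmic reticulum stress element, CCAAT and CCACG with 9 bases between them, is bound by ATF6 with NF-Y and stood in 0.113% of 32851 promoters. Its second form, ATTGG and CCACG with 1 base between them, stood in 0.0304%, the core of the unfolded protein response element, TGACGTG, in 1.65%, and the C/EBP-ATF response element, TGATGNAA, a site for ATF4 with C/EBP partners, in 3.45%. Hspa5 held the first and the third, Herpud1 the second and the fourth, and Atf3, Asns and Chac1 held the fourth. No 2 matches overlapped. Xbp1, Dnajb9, Atf4, Ddit3 and Trib3 had none of these letters within this window. The sequences are written 5′ to 3′ on the strand of the gene, with matches in capitals; in Herpud1, Atf3 and Chac1 the fourth element lay on the opposite strand and reads TTGCATCA.
Hspa5, chr2:34771840-34772089, plus strand: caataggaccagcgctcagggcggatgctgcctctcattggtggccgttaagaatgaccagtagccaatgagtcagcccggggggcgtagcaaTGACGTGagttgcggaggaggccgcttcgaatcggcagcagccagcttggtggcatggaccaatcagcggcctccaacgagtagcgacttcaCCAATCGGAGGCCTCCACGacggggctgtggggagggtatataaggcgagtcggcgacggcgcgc
Herpud1, chr8:94386179-94386428, plus strand: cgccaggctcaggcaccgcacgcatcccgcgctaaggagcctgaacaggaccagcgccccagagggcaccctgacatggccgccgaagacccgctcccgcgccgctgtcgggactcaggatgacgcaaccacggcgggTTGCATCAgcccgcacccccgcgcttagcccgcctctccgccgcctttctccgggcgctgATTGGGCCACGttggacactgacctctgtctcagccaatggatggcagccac
Atf3, chr1:191183334-191183583, minus strand: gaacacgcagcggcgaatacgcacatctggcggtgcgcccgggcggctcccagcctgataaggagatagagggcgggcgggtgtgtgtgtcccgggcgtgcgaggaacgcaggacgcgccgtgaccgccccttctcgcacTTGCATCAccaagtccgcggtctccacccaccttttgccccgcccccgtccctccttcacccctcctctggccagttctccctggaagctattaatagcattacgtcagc
Asns, chr6:7693210-7693459, minus strand: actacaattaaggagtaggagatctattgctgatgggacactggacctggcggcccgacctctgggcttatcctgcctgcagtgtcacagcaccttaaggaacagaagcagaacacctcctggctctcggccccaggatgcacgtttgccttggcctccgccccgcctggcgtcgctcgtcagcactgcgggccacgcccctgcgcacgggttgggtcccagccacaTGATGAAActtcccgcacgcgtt
Chac1, chr2:119350992-119351241, plus strand: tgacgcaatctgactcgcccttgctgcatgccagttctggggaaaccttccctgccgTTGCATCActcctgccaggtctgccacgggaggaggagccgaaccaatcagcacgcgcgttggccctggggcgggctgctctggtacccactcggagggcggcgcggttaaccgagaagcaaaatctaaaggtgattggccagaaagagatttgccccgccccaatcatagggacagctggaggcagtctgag
A match is a run of letters and was not tested for binding. The 4 genes with the C/EBP-ATF element did not all move alike: Asns and Atf3 rose in all 3 tumour against liver comparisons, Chac1 was called in none and Herpud1 was lower in 1.

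Levels between genes were compared per kilobase of exon (RPKM, CPM divided by exon length). In control diet liver the median RPKM was 167 for Hspa5, 106 for Herpud1, 55.9 for Xbp1, 36.3 for Atf4 and 20.5 for Dnajb9. Far below these stood Ddit3 with 3.33, Chac1 with 2.94, Trib3 with 1.27, Atf3 with 0.706 and Asns with 0.261. The ER genes were thus the abundant ones and the ATF4 targets the scarce ones. In DEN tumours on the control diet Trib3 stood at 15.1 RPKM and Asns at 7.88, while Hspa5 stood at 148. Over the 49 libraries the highest level of Asns was 304-fold the lowest, of Atf3 61-fold, of Trib3 36.3-fold, of Ddit3 24.1-fold and of Chac1 17.1-fold. For the ER genes and Atf4 that span was 2.77-fold (Atf4) to 5.25-fold (Dnajb9). The plot of log2 CPM by library shows both patterns.

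**Figure D1:**
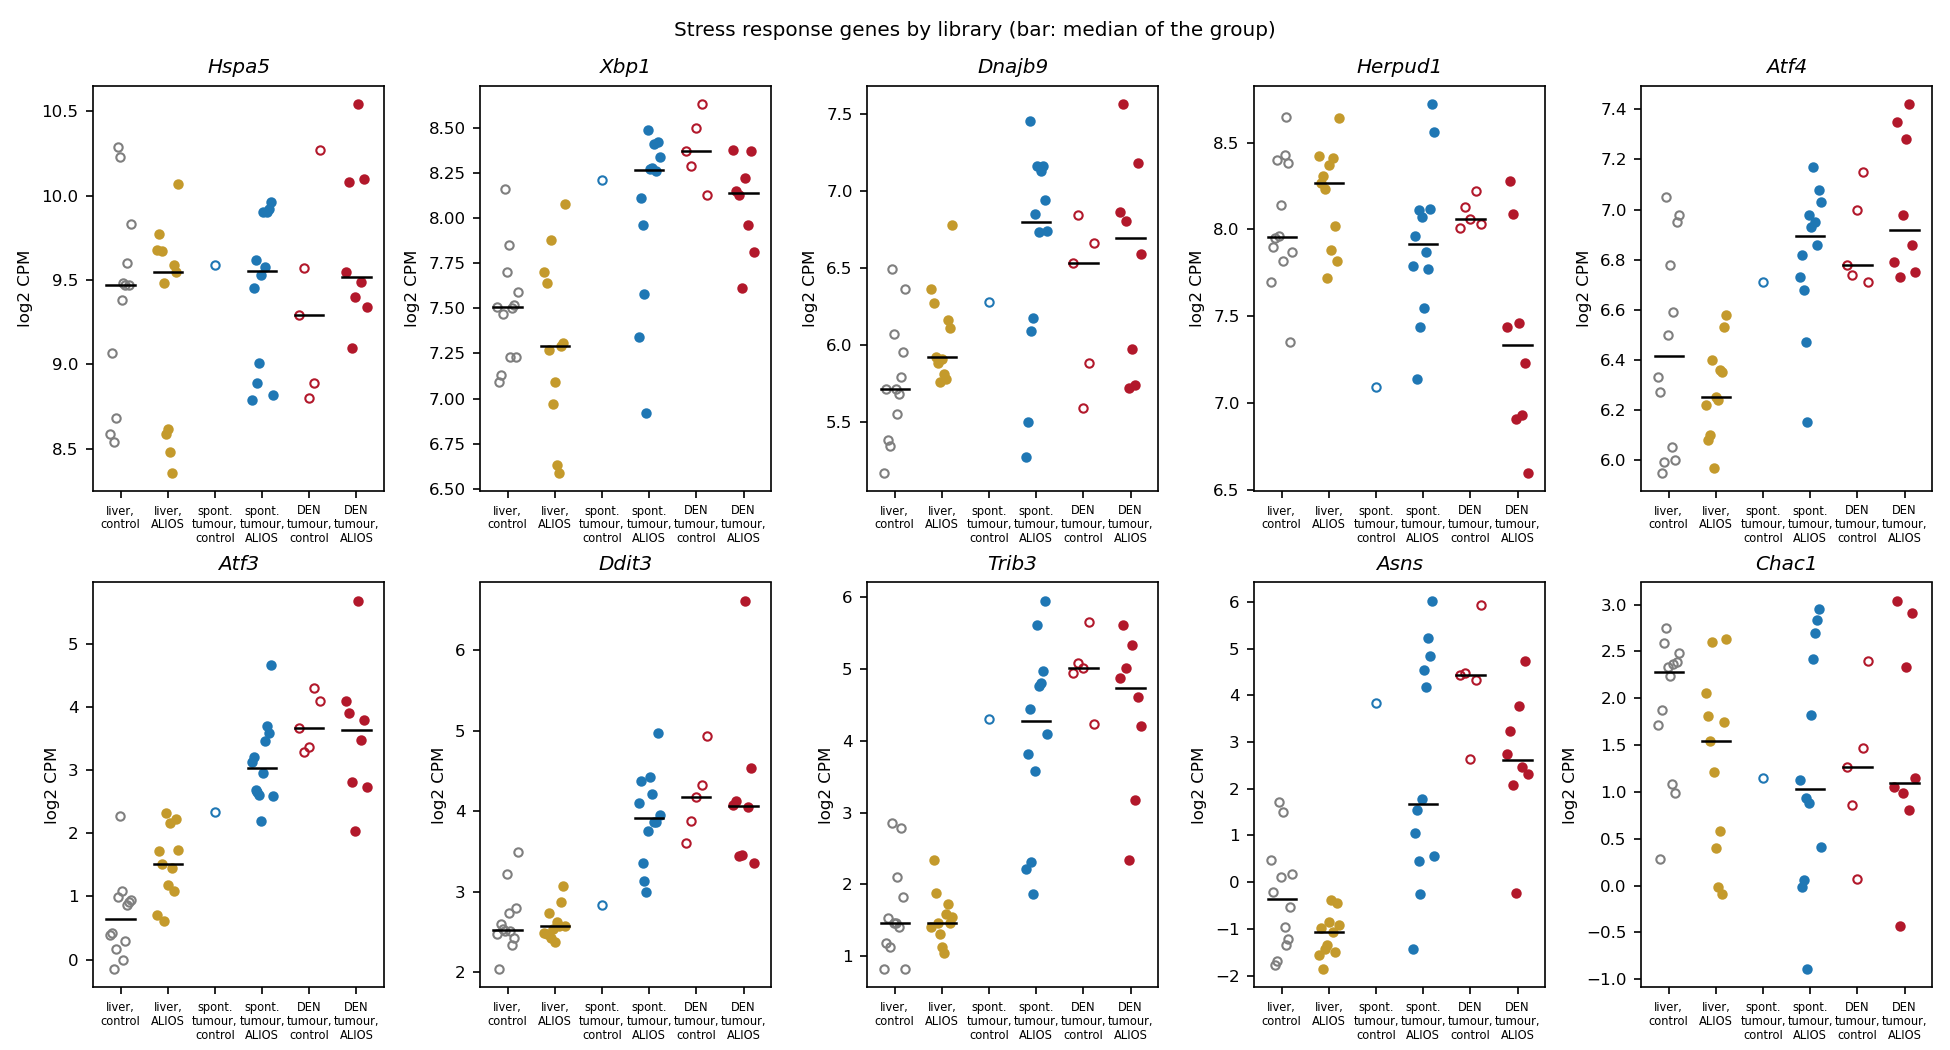
Level of each of the 10 genes in every library but T1 (vertical axis, log2 CPM, a separate scale for each gene) by group, with 1 point a library and a bar at the median of each group with several libraries; open symbols mark the control diet. Asns, Trib3, Ddit3 and Atf3 stand higher in the tumour groups, whereas the group medians of Hspa5 stay between 626 and 771 CPM.

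The first question was what the ALIOS diet did to these genes in non-tumour liver (11 against 12 livers). Asns was lower and Atf3 higher, and the other 8 genes were not called. That is 2 of 10 genes at an edgeR adjusted p under 0.05, where 11.2% of the 13723 genes tested were called, 6.73% higher and 4.51% lower. Groups did not overlap for 0.0656% of genes in the higher direction and 0.00729% in the lower, and for none of the 10.

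Asns, the asparagine synthetase (ENSMUSG00000029752.10, chromosome 6, 7675169 to 7693254, minus strand), ranged from 0.231 to 3.20 CPM in control diet livers with a median of 0.714, and from 0.213 to 0.699 with a median of 0.414 in ALIOS livers. All 11 ALIOS livers were under the control median, but the groups overlapped, and N5 and N7 were the highest of the control livers at 3.20 and 2.79. The log2 fold change was -1.30 ± 0.40 (SE; edgeR adjusted p = 0.0387). These levels rest on 6 to 85 counts a library. Atf3, an early stress-induced factor (ENSMUSG00000026628.11, chromosome 1, 191170296 to 191218039, minus strand), went from a median of 1.52 CPM (0.838 to 4.79) to 2.81 (1.46 to 4.92), with 10 of 11 ALIOS livers over the control median and a log2 fold change of 0.80 ± 0.26 (edgeR adjusted p = 0.0499). Both calls lay near the limit of 0.05 and were lost in many fits with 1 liver left out. The log2 fold change stayed at 0.70 to 1.05 for Atf3 and at -1.41 to -1.01 for Asns over these fits. Atf3 stayed called only when N6, N13, N16 or N21 was the liver left out, with an edgeR adjusted p of 0.00518 to 0.107 over the 23 fits. Asns was no longer called without N1, N5, N7, N14, N15, N17, N18, N20, N21 or N23 (0.025 to 0.0782). Of 12 macrophage markers, 9 were called higher with the ALIOS diet, their sum going from 177 to 466 CPM (median 287) to 259 to 897 (median 451), with none at 0; their part in the change of Atf3 was not tested. Cytosolic heat shock genes, a separate stress response, had 3 of 11 members called higher and none lower.

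Hspa5, the main ER chaperone (ENSMUSG00000026864.11, chromosome 2, 34771970 to 34777547, plus strand), showed no such shift. It ran from 372 to 1250 CPM (median 708) in control diet livers and from 328 to 1070 (median 747) in ALIOS livers, with a log2 fold change of -0.13 and a 95% interval of -0.60 to 0.34. Within each diet the livers fell apart: N17 to N20 lay at 386, 392, 358 and 328 CPM while the other 7 ALIOS livers lay at 714 or more, and N1, N3 and N4 lay at 385, 372 and 409 CPM among the control livers. Intervals for the remaining genes reached from -0.68 to 0.27 for Trib3, from -0.34 to 0.19 for Ddit3 and from -0.49 to 0.04 for Atf4. Chac1 had a median of 4.81 CPM in control diet livers and 2.84 in ALIOS livers, with an interval of -1.18 to 0.17.

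In tumours that arose without DEN on the ALIOS diet (12 tumours, T1 left out, against 11 ALIOS livers), Asns, Trib3, Atf3 and Ddit3 rose most, and Xbp1, Dnajb9 and Atf4 rose less. Of the 10 genes, 7 were called higher and none lower, where 52.8% of 14183 genes tested were called, 26.9% higher and 25.9% lower. The groups overlapped for every one of the 10, as against 1.47% of all genes that did not overlap in the higher and 2.71% in the lower direction. The first 4 rose by more than 2-fold and the other 3 by less. Hspa5, Herpud1 and Chac1 were not called. Tumour T6, which the study's clustering placed among the non-tumour livers, was the lowest tumour for Xbp1 (121 CPM), Atf4 (70.7), Ddit3 (7.94), Trib3 (3.56) and Chac1 (0.478). The remaining genes were lowest in other tumours. Without T6 the log2 rise was 0.81 for Xbp1 and 0.63 for Atf4.

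Asns spread the most. It stood at 0.310 CPM in T2, 0.770 in T6, 1.31 in T5, 1.40 in T14, 2.01 in T3, 2.87 in T4 and 3.40 in T8, and then at 18.1 in T10, 23.4 in T9, 28.8 in T12, 37.2 in T11 and 64.8 in T13. Of 12 tumours, 11 exceeded every ALIOS liver, with T2 inside their range, and no tumour lay between 3.40 and 18.1. The log2 fold change was 5.16 ± 0.81 (edgeR adjusted p = 1.62e-05), or 35.8-fold between fitted means, against a median of 3.13 CPM in tumours and 0.414 in livers. Trib3 (ENSMUSG00000032715.9, chromosome 2, 152337422 to 152344032, minus strand) ranged from 3.56 to 61.8 CPM with a median of 19.4, against 2.01 to 5 and a median of 2.70 in livers, and rose by 2.94 ± 0.40 on the log2 scale (edgeR adjusted p = 3.21e-06). The 5 tumours with the most Asns, T9 to T13, were also the 5 with the most Trib3 (27.2 CPM or more, 21.8 at most in the others) and the most Chac1 (3.47 or more, 2.13 at most in the others). Of these 5 tumours, 4 were among the 5 highest for Hspa5, Dnajb9 and Atf3, 3 for Xbp1, Atf4 and Ddit3, and 2 for Herpud1. This is a description of the same libraries, chosen after their values were seen, and was not tested.

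Atf3 ranged from 4.55 to 25.4 CPM (median 8.18), so that 11 of 12 tumours exceeded every ALIOS liver, and rose by 1.65 ± 0.27 (edgeR adjusted p = 2.6e-05). Ddit3, which encodes the pro-apoptotic factor CHOP (ENSMUSG00000025408.13, chromosome 10, 127290774 to 127296288, plus strand), went from 5.16 to 8.35 CPM (median 5.86) in livers to 7.94 to 31.2 (median 14.9), a log2 rise of 1.37 ± 0.18 (edgeR adjusted p = 2.14e-06). Its exons overlap those of Mars on the other strand by 68 bases, those of Gm4189 by 13 and those of a second entry named Ddit3 by 105, and the strand setting of the counting is not given in the sources used here, so reads over these bases are uncertain. Atf4 itself (ENSMUSG00000042406.7, chromosome 15, 80255184 to 80257541, plus strand) changed less, from 62.5 to 95.6 CPM (median 76.2) to 70.7 to 144 (median 119), a log2 rise of 0.52 ± 0.10 (edgeR adjusted p = 0.000217).

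Among the ER genes, Xbp1 (ENSMUSG00000020484.16, chromosome 11, 5520659 to 5525893, plus strand) stood at 121 to 358 CPM (median 308) against 96.4 to 270 (median 156), a rise of 0.68 ± 0.19 on the log2 scale (edgeR adjusted p = 0.00476). Dnajb9 (ENSMUSG00000014905.3, chromosome 12, 44205559 to 44210326, minus strand) stood at 38.5 to 175 CPM (median 111) against 54.3 to 110 (median 60.3), a rise of 0.60 ± 0.21 (edgeR adjusted p = 0.0186), with T2 and T3 below every liver. Hspa5 had a median of 752 CPM against 747, and its 95% interval of -0.32 to 0.54 holds no change of 2-fold either way. Herpud1 (ENSMUSG00000031770.13, chromosome 8, 94386438 to 94395377, plus strand), at 141 to 421 CPM (median 241) against 211 to 398 (median 308), had an interval of -0.58 to 0.06. For Chac1 (ENSMUSG00000027313.3, chromosome 2, 119351229 to 119354381, plus strand) the interval of -0.79 to 1.04 left room for change in either direction, and its tumours ran from 0.478 to 7.69 CPM.

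**Figure D2:**
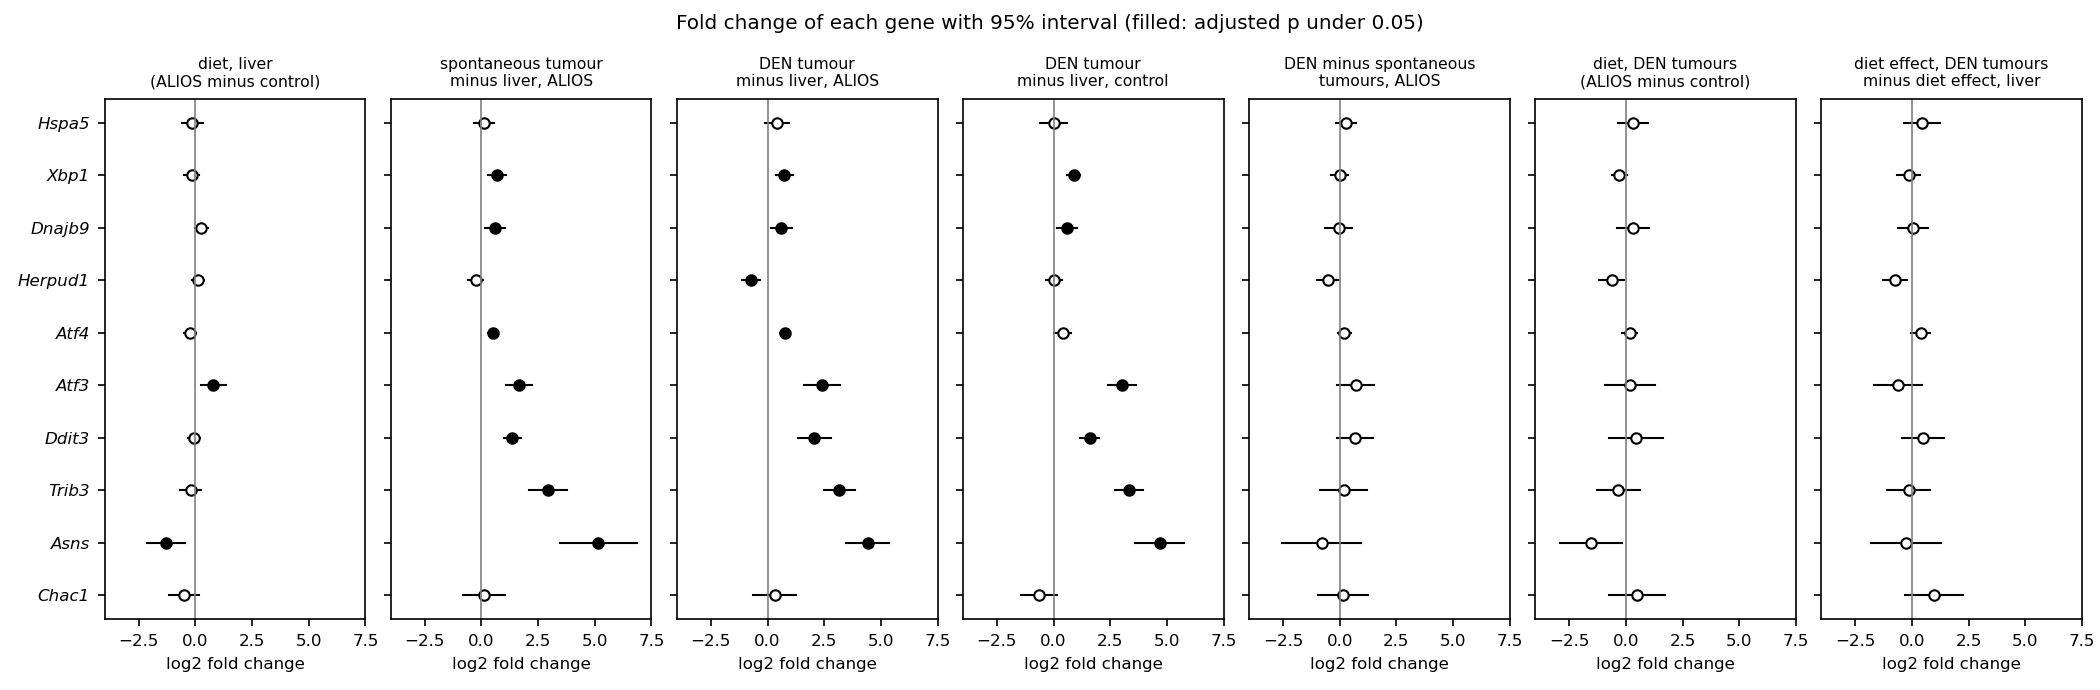
Log2 fold change of each gene (horizontal axis) in the 7 comparisons, with its 95% interval as a line; filled points passed an edgeR adjusted p of 0.05. In the 3 tumour against liver comparisons Asns stands farthest right at 4.42 to 5.16, and Hspa5 and Chac1 are unfilled in all 7.

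DEN tumours on the ALIOS diet (8 against the same 11 livers) showed a like order of genes, with Herpud1 lower. Of the 10 genes, 7 were called higher and 1 lower, also without T24, where 47.5% of 14434 genes were called, 27.7% higher and 19.8% lower. For 4 genes, Atf4, Ddit3, Trib3 and Asns, every tumour exceeded every liver, which held for 4.21% of genes tested. This comparison shares its livers with the one before it, so the 2 sets of values are given side by side and not counted as separate support.

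Asns ranged from 0.792 CPM in T23 to 26.7 in T26 with a median of 6.08, a log2 rise of 4.42 ± 0.46 (edgeR adjusted p = 4.3e-07). Trib3 ran from 5.02 in T23 to 49.3 in T16 (median 26.8), a rise of 3.17 ± 0.32 (edgeR adjusted p = 3.53e-07). T23 was thus the lowest of the 8 for both, as it was for Atf3 at 4.01 CPM. Atf3 had a median of 12.4 and reached 51.1 CPM in T24, a rise of 2.39 ± 0.39 (edgeR adjusted p = 5.45e-05). Ddit3 lay between 10.2 and 23.2 CPM in 7 tumours and at 97.9 in T24 (median of the 8, 16.7). Its rise of 2.07 ± 0.36 (edgeR adjusted p = 0.000102) became 1.32 without T24 (edgeR adjusted p = 1.24e-06), still called. Atf4 stood at 106 to 171 CPM with no tumour inside the range of the livers, a rise of 0.77 ± 0.11 (edgeR adjusted p = 1.25e-05).

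Xbp1 rose by 0.73 ± 0.18 (195 to 332 CPM, median 282; edgeR adjusted p = 0.0026). Dnajb9 rose by 0.61 ± 0.22 (52.7 to 189 CPM, median 104; edgeR adjusted p = 0.0266), a call that was lost without T15, T16 or T26, the value without T16 being 0.42 (edgeR adjusted p = 0.0976). Herpud1, which helps remove misfolded proteins from the ER, fell. It stood at 211 to 398 CPM (median 308) in ALIOS livers and at 97.2 to 312 (median 162) in these tumours, 6 of which lay below every liver while T16 and T22 kept 312 and 273. The log2 fold change was -0.72 ± 0.20 (edgeR adjusted p = 0.00596). The 13 clock genes, listed as a sign of the time of day, moved with this group: 4 were called higher and 6 lower than in liver. Their sum ran from 311 to 935 CPM (median 421) against 616 to 964 (median 772) in the livers, with none at 0 throughout a group. As members moved in opposite directions, the sum does not measure the size of the shift. The part of the clock genes in the change of Herpud1 was not tested. Hspa5 stood at 547 to 1480 CPM (median 735), highest in T24, with an interval of -0.09 to 0.93.

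DEN tumours on the control diet (5 against 12 control diet livers) shared no sample with the 2 tumour comparisons above, but shared its livers with the diet comparison. Of the 10 genes, 6 were called higher and none lower, where 51.7% of 14731 genes were called, 27.3% higher and 24.4% lower. Atf3, Ddit3, Trib3 and Asns did not overlap between the groups, as was true in this direction of 11.4% of genes.

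Asns stood at 21.5 CPM in T17, 22.1 in T18, 6.16 in T19, 20.0 in T20 and 61.2 in T21, against at most 3.20 in the livers. It rose by 4.68 ± 0.51 on the log2 scale (edgeR adjusted p = 3.84e-07), or by 4.06 without T21. Trib3 stood at 30.7, 33.7, 32.2, 50.4 and 18.7 CPM in the same order, against at most 7.19, a rise of 3.32 ± 0.29 (edgeR adjusted p = 1.85e-08). The tumour with the most Asns, T21, had the least Trib3. Atf3 stood at 12.5, 9.71, 10.3, 19.6 and 17.1 CPM, against at most 4.79 in livers, a rise of 3.02 ± 0.29 (edgeR adjusted p = 7.09e-08). Ddit3 stood at 12.2, 14.6, 18.1, 19.9 and 30.4 CPM, against at most 11.1, a rise of 1.59 ± 0.20 (edgeR adjusted p = 2.19e-06).

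Xbp1 stood at 331, 314, 362, 396 and 279 CPM and rose by 0.88 ± 0.14 (edgeR adjusted p = 2.71e-05), with 4 of 5 tumours over every liver. Of 9 B and plasma cell markers tested, 4 were called higher here and none lower: Jchain (2.70), Pou2af1 (1.64), Mzb1 (1.52) and Irf4 (1.24). The sum of all 10 listed ran from 201 to 285 CPM (median 236) in these tumours and from 153 to 263 (median 210) in the livers, with none at 0 throughout a group. Most of that sum was Sdc1, with a mean log2 CPM of 7.66 in the tumours and 7.68 in the livers, so it does not follow the other markers. Jchain had means of 4.21 and 1.93. The part of the B and plasma cell markers in the rise of Xbp1 was not tested. Dnajb9 stood at 92.2, 114, 48.0, 58.6 and 101 CPM, against at most 89.8, and rose by 0.58 ± 0.21 (edgeR adjusted p = 0.0277), a call lost without T17, T18 or T21, with a value of 0.42 without T18 (edgeR adjusted p = 0.122). Atf4 was not called here: 105 to 142 CPM against 61.6 to 133 gave 0.39 with an interval of 0.02 to 0.77 (edgeR adjusted p = 0.0711). Herpud1 lay between 257 and 298 CPM in the 5 tumours and gave 0.02, with an interval of -0.32 to 0.36. Hspa5 stood at 626, 758, 445, 475 and 1240 CPM, and its interval ran from -0.60 to 0.60. Chac1 stood at 0.989 to 5.20 CPM against 1.15 to 6.66, with -0.65 as the log2 fold change. Without T21, its highest tumour, Chac1 was called lower at -1.10 (edgeR adjusted p = 0.0245).

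Among the 10 genes 6, Xbp1, Dnajb9, Atf3, Ddit3, Trib3 and Asns, were called higher in all 3 tumour against liver comparisons. Of all genes tested, 26.9%, 27.7% and 27.3% were called higher in each. The share called higher in all 3 was not counted, so this number has no background beside it. Both comparisons on the ALIOS diet used the same livers. With all 6 groups fitted together Dnajb9 lost its call in both DEN comparisons (edgeR adjusted p = 0.0525 on the ALIOS and 0.0994 on the control diet). Immediate early genes, which also respond to handling, moved the same way: 10, 10 and 11 of 14 were called higher in the 3 comparisons and none lower. Their sum was 116 to 285 CPM in control diet livers, 123 to 305 in ALIOS livers, 236 to 836 in tumours without DEN, 240 to 990 in DEN tumours on the ALIOS diet and 540 to 1150 in DEN tumours on the control diet, with none of the 14 at 0 throughout a group. Their part in the rise of Atf3 and the others was not tested. T24, which had the highest Atf3, Ddit3 and Hspa5 of all libraries, had the lowest sum of its group, 240. It also had the lowest hepatocyte sum of its group (89200 CPM). Its macrophage (860) and stellate cell and matrix (1230) sums were the highest, so nothing about these genes is read from this library. Of 11 cytosolic heat shock genes, 0, 1 and 2 were called higher and 3, 3 and 4 lower. Of 15 hepatocyte markers, 4 were called higher in each comparison and 7, 5 and 5 lower. Of 12 macrophage markers, 1, 1 and 3 were called higher and 8, 1 and 2 lower, with sums of 96 to 526 CPM (median 283) in tumours without DEN, 135 to 860 (median 295) and 141 to 371 (median 226) in the DEN tumours on the ALIOS and the control diet, and none at 0 throughout a group. Of 11 stellate cell and matrix markers, 2, 3 and 6 were called higher and 3, 4 and 3 lower, with sums of 67 to 577 CPM (median 184), 118 to 1230 (median 227) and 133 to 614 (median 230), against 254 to 679 (median 313) in ALIOS and 171 to 357 (median 268) in control diet livers. Of 10 endothelial markers, 3, 4 and 4 were called higher and 1, 1 and 2 lower, with sums of 154 to 393, 137 to 307 and 183 to 288 CPM, against 192 to 293 and 193 to 307 in the livers. Of the 8, 9 and 5 T cell markers tested, 1, 0 and 3 were called higher and 1, 0 and 1 lower, and the 10 listed summed to at most 29.3 CPM in any library. The part of these cell markers in the changes was not tested.

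The single tumour on the control diet without DEN, T7, entered no test. It held 14.3 CPM of Asns, 19.7 of Trib3, 4.99 of Atf3 and 296 of Xbp1, each over the highest of the 12 control diet livers (3.20, 7.19, 4.79 and 286). Its Herpud1 of 136 CPM lay below the lowest of them, 163. Its 13 clock genes summed to 396 CPM, against 357 to 1030 (median 870) in those livers. Hspa5 (771), Dnajb9 (77.7), Atf4 (105), Ddit3 (7.07) and Chac1 (2.16) lay within the livers' range.

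A further 3 comparisons asked whether the tumours differed among themselves. Between DEN tumours and tumours without DEN on the ALIOS diet none of the 10 genes was called, where 0% of 14845 genes were called. At an unadjusted p under 0.05, 1079 genes passed, Herpud1 among them, and DESeq2 called 86 genes and none of the 10. Intervals stayed wide for the most variable genes, from -2.53 to 0.96 for Asns and from -0.85 to 1.2 for Trib3, and were narrower for Xbp1, from -0.39 to 0.38, and Atf4, from -0.08 to 0.48. Herpud1 gave -0.52 with an interval of -1.0 to -0.04 (edgeR adjusted p = 0.602). Of 13 clock genes, 11 reached an unadjusted edgeR p under 0.05, against 7.27% of all genes, with 0 called by edgeR and 5 by DESeq2. Their part in the value of Herpud1 was not tested.

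Diet within the DEN tumours (8 ALIOS against 5 control) called none of the 10 genes and 0.0134% of 14944 genes, that is 2 genes. Groups did not overlap for 0.315% of genes in the higher and 0.348% in the lower direction, and for none of the 10. Asns and Herpud1 were among the 1273 genes with an unadjusted p under 0.05, and DESeq2 called 152 genes and none of the 10. The medians of Asns were 6.08 CPM in ALIOS tumours and 21.5 in control diet tumours, and 4 of 8 ALIOS tumours lay below all 5 control tumours. The fold change of -1.54 ± 0.64 did not pass (edgeR adjusted p = 0.511) and was -0.95 without T21. For Herpud1, 6 of 8 ALIOS tumours lay below all 5 control tumours, with -0.61 ± 0.26 (edgeR adjusted p = 0.517). Of 13 clock genes, 12 reached an unadjusted edgeR p under 0.05, against 8.52% of all genes, with 0 called by edgeR and 4 by DESeq2. Their part in the value of Herpud1 was not tested.

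The test of whether diet acted differently in DEN tumours than in liver called none of the 10 genes, where 2.27% of 15606 genes were called, 1.04% higher and 1.23% lower. An unadjusted p under 0.05 was reached by 2617 genes, Herpud1 among them, and DESeq2 called 656 genes and none of the 10. For Herpud1 the diet effect was lower by 0.74 in tumours than in liver, with an interval of -1.28 to -0.20 (edgeR adjusted p = 0.136), and without T16 it was -0.91 and called (edgeR adjusted p = 0.0397). Of 13 clock genes, 11 reached an unadjusted edgeR p under 0.05, against 16.8% of all genes, with 3 called by edgeR and 5 by DESeq2. Their part in the value of Herpud1 was not tested. The Asns difference of -0.25 had an interval of -1.79 to 1.29, so its diet effects in liver and tumour could not be told apart.

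Other genes of the 2 pathways were counted in 6 lists. Of 23 ER chaperones and folding enzymes, 4 were higher and 5 lower in tumours without DEN, 4 and 2 in DEN tumours on the ALIOS diet, and 3 and 3 in DEN tumours on the control diet, with medians of -0.07, 0.11 and -0.09 (all genes 0.01, 0.077 and 0.031). Over all genes, 52.8%, 47.5% and 51.7% were called in these 3 comparisons, a larger share than of the chaperones, and the counts of the next lists are to be read against the same shares. Dnajc10, a disulphide reductase, rose by 0.60 and 0.81 on the ALIOS diet without and with DEN. Pdia6, a disulphide isomerase, rose by 0.93 and 0.91 in DEN tumours on the ALIOS and the control diet. Pdia5, another, fell by 0.63, 0.57 and 0.80 in the 3 comparisons. ER-associated degradation gave 1 higher and 6 lower, 4 and 4, and 2 and 5 of 16. Of 24 translocation and secretory genes tested, 4, 5 and 1 were higher and 2, 1 and 1 lower. Kdelr3, a receptor that returns ER proteins, stood far from the rest and rose by 4.30, 4.12 and 6.10.

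Of 32 ATF4 and CHOP targets tested (34 listed), 22, 21 and 19 were higher and 5, 3 and 3 lower, where 26.9%, 27.7% and 27.3% of all genes were higher and 25.9%, 19.8% and 24.4% lower, with median log2 fold changes of 1.35, 1.58 and 1.53. The list was chosen with earlier results of these data known, so its distance from all genes is a description and not a test. Phgdh and Psat1, the first enzymes of serine synthesis, rose by 6.61 and 5.29 in tumours without DEN, by 5.95 and 5.09 in DEN tumours on the ALIOS diet, and by 7.13 and 4.78 in those on the control diet. The neutral amino acid transporter Slc1a4 rose by 1.92 and 3.17 on the ALIOS diet without and with DEN, and the mitochondrial enzyme Pck2 by 3.33 in DEN tumours on the control diet. Sesn2, a leucine sensor, rose by 1.45, 1.65 and 1.88, and the hormone-like factor Gdf15 by 1.49, 1.66 and 2.20. Fgf21, a liver hormone of fasting and amino acid shortage, rose by 1.53 and 1.26 on the ALIOS diet and gave 0.60 on the control diet, which did not pass (edgeR adjusted p = 0.375). Against this direction, the transsulphuration enzyme Cth fell by 1.63, 1.69 and 2.22, and Cbs, which acts before it, by 1.56 in DEN tumours on the control diet.

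**Figure D3:**
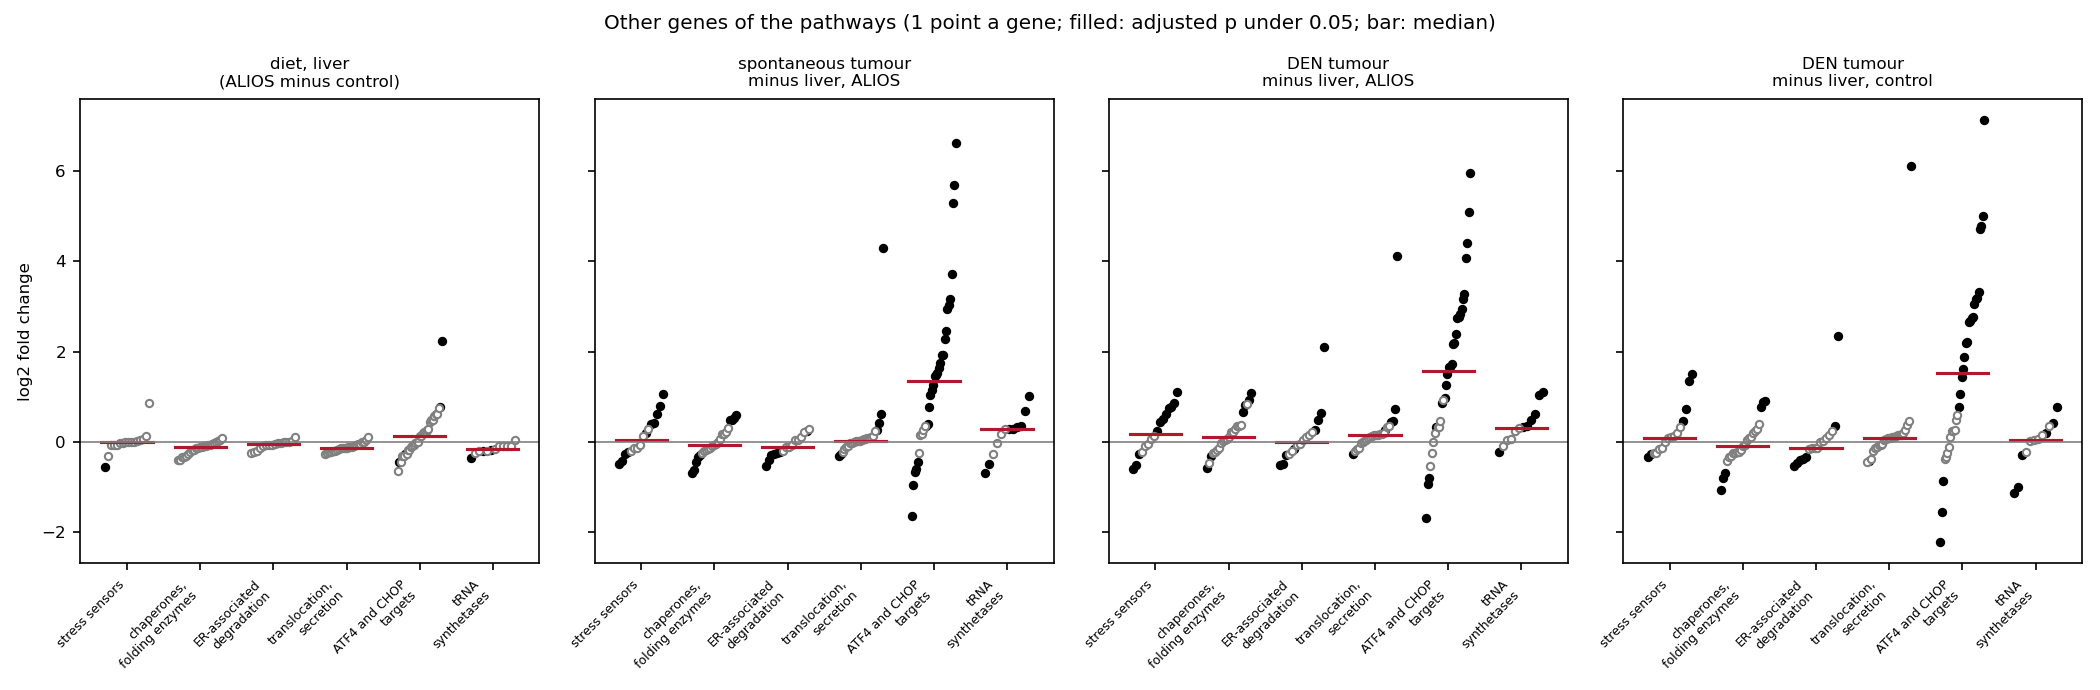
Log2 fold change (vertical axis) of each gene tested in 6 lists of the same pathways, in the diet comparison in liver and the 3 tumour against liver comparisons; filled points passed an edgeR adjusted p of 0.05 and bars mark medians. The ATF4 and CHOP targets reach 7.13 and have medians of 1.35 to 1.58 in tumours, and the ER lists have medians of -0.13 to 0.15.

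Among 12 cytosolic transfer RNA synthetases, 6, 6 and 3 were higher and 2, 1 and 3 lower. Cars and Sars rose in each (1.01 and 0.69, 1.10 and 0.62, 0.77 and 0.42), while Aars fell by 0.69 and 1.01 in tumours without DEN and in DEN tumours on the control diet, and Tars by 0.48 and 1.13. Among 16 sensors and their partners, Ern1 rose by 0.63 and Eif2ak3 by 0.39 in tumours without DEN, and by 0.85 and 0.61 in DEN tumours on the ALIOS diet. In DEN tumours on the control diet they gave 0.20 and 0.32, which did not pass. Atf6 was not called in any of the 3 (-0.15, -0.22 and -0.24). Ppp1r15a (GADD34), the phosphatase subunit that reverses eIF2alpha phosphorylation, rose by 0.74 and 0.73 in the DEN tumours of the 2 diets and gave 0.28 without DEN (edgeR adjusted p = 0.0592). Creb3l2, a membrane-bound relative of ATF6, rose by 1.07, 1.11 and 1.34, and the liver-enriched Creb3l3 fell by 0.48 and 0.61 on the ALIOS diet.

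In non-tumour liver the ALIOS diet moved few of these lists. Of 23 chaperone, 16 degradation and 23 translocation genes tested, 0 were called by edgeR or by DESeq2 and 0 reached an unadjusted p under 0.05, which 29.3% of all genes tested did. Ern1 fell by 0.56 (edgeR adjusted p = 0.0107). Of 31 ATF4 and CHOP targets tested, 4 were called, a share near the 11.2% of all genes. The lipoprotein receptor Vldlr rose by 2.24 and the proline synthesis enzyme Aldh18a1 by 0.76, while the transporter Slc38a2 fell by 0.44 and the serine synthesis enzyme Psph by 0.27. Of 12 synthetases 3 were lower, Cars (-0.35) and Sars (-0.19) among them. Between the diet effects in DEN tumours and in liver, Cbs (1.31), Mthfd1l, a mitochondrial folate enzyme (-2.07), and Tars (1.19) differed.

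The genes whose levels followed each of the 10 most closely were then listed. After the mean of each group was subtracted, the Pearson correlation of log2 CPM over 48 libraries and 15985 genes was highest for Hspa5 with Hyou1 (0.98), Pdia4 (0.96) and Hsp90b1 (0.94), all ER chaperones or folding enzymes. Hyou1 itself stood at a median of 126 CPM in control diet livers and 100 in tumours without DEN. Dnajb9 was most like Arcn1 (0.92), a coat protein of transport vesicles, Gfpt1 (0.92), which starts hexosamine synthesis, and Tmem263 (0.91). For Xbp1 the leading genes were Foxa3 (0.89), a liver transcription factor, Gm11963 and Cldn14. Asns was most like Phgdh (0.82), Nars (0.79), the asparaginyl transfer RNA synthetase, and Tspan9 (0.79). No likeness above 0.79 was found for Herpud1, Atf3, Atf4, Ddit3, Trib3 or Chac1. These values carry no test: the points of a pair share the library and its depth, and Asns in tumours without DEN fell into separate clusters of libraries.

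Pairs among the 10 genes reached 0.72 for Atf3 with Ddit3 and 0.65 for Trib3 with Asns, and were as low as 0.01 for Dnajb9 with Ddit3. Pairs of an ER gene with a gene of the ATF4 branch did not stand lower: Hspa5 with Chac1 and Xbp1 with Trib3 gave 0.60 and Dnajb9 with Asns 0.59. The median was 0.41 over the 24 pairs between branches, 0.42 over the 6 within the ER branch and 0.44 over the 15 within the ATF4 branch. Without T24 the value for Atf3 with Ddit3 became 0.62. Trib3 with Asns gave 0.56 without T6 and T23, the 2 farthest libraries. As rank correlations these pairs gave 0.62 and 0.43. Trib3 and Asns gave 0.77 over the 25 tumours and 0.01 over the 23 livers, and Asns with Phgdh gave 0.89 and 0.39, where Phgdh in livers was at most 0.562 CPM and therefore close to its counting floor. Asns was also scarce in livers, at 0.213 to 0.699 CPM (7 to 24 counts) on the ALIOS diet and 0.231 to 3.20 on the control diet. Both liver values of Asns are limited by this. Hspa5 with Hyou1 gave 0.97 over tumours and 0.99 over livers. Hspa5 with Dnajb9 gave 0.52 over tumours and 0.84 over livers.

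**Figure D4:**
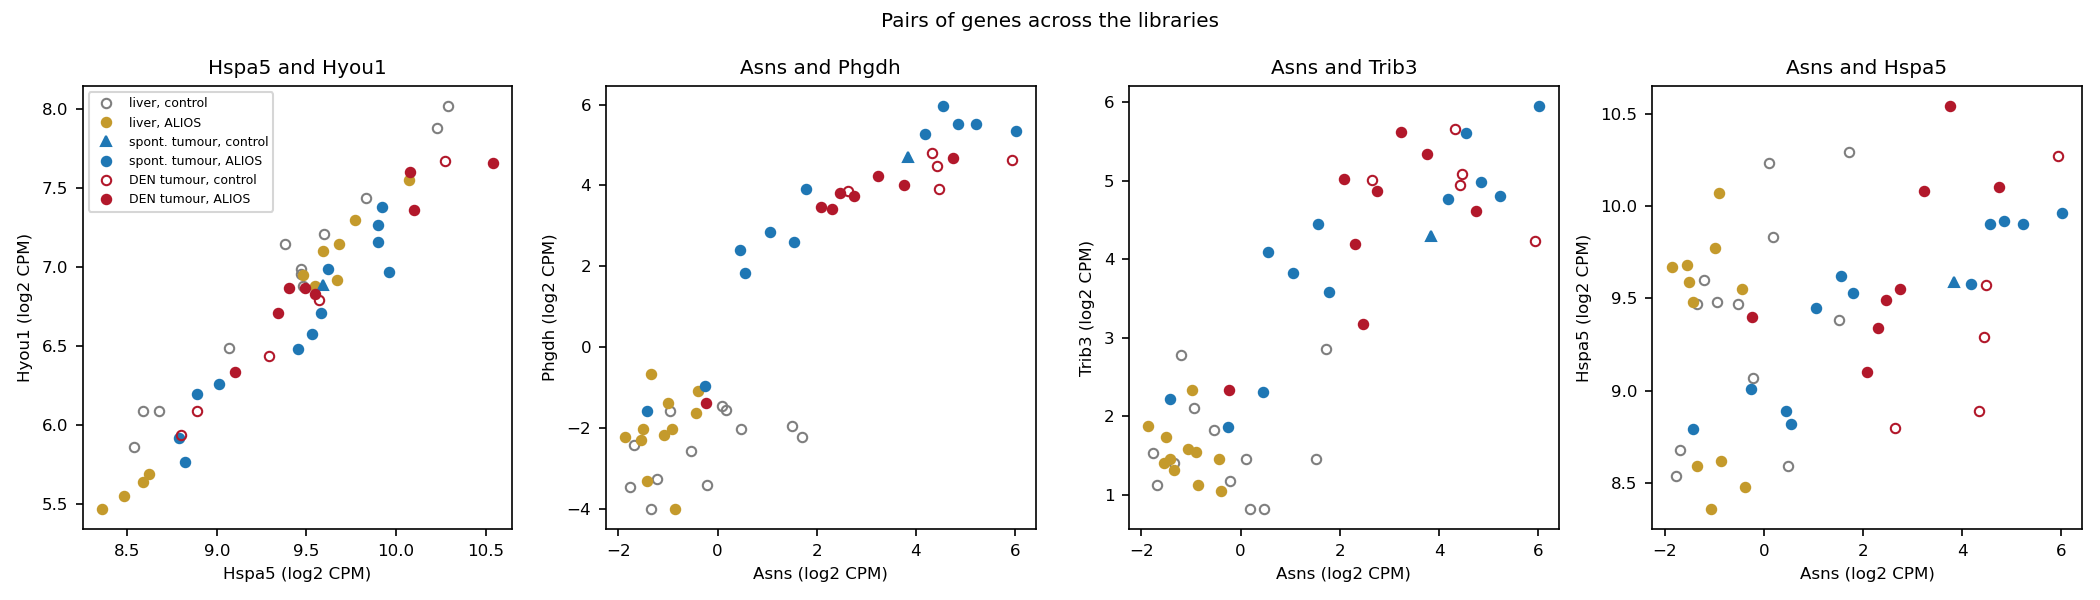
Log2 CPM of pairs of genes in the 49 libraries, 1 point a library, coloured by group as named in the legend. Hspa5 and Hyou1 form 1 line through livers and tumours, Asns and Phgdh rise together in tumours, Trib3 is high in most tumours with high Asns, and the last panel sets Hspa5 against Asns.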

How the data were processed

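The authors sequenced stranded mRNA libraries from tissue shipped in RNAlater (per the labels) and deposited raw counts per gene (STAR in 2-pass mode on mm10, HTSeq over exons in intersection-nonempty mode, Gencode M6), with no normalisation. Tool versions and the strand setting are not given in the sources used here. Each of the 50 columns matched 1 label, and 0 were unmapped. CPM (TMM factors) and RPKM (exon lengths from Gencode M21) were computed from these deposited counts, with levels in log2 CPM at a prior count of 2. Groups were compared with the quasi-likelihood test of edgeR 4.0.16 (limma 3.58.1, R 4.3.3) on the 2 groups of a comparison (4 for the difference of diet effects), after filterByExpr, with Benjamini-Hochberg adjustment over all genes tested and calls at 0.05. DESeq2 1.42.0, the study's tool, was an alternative, beside other size factors, filters, left-out libraries and pairing by number. Figures used Python 3.11.15, pandas 2.3.3 and Matplotlib 3.10.9. The tests between 2 groups were run on simulated counts with 1 common spread for all genes, unlike the uneven spread of these data. The difference of diet effects was not simulated. Members and lists were chosen with earlier results of these data known. Named were the 10 genes, 9 regulators and targets chosen by name, up to 2 called genes a direction from each list and comparison with the smallest p, and the 3 genes most like each of the 10. In DEN comparisons the libraries left out in turn were the DEN tumours (and T9), not the livers. One result that the rule for named genes would give is not reported here.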

Additional observations from a re-analysis of the deposited data

Results flagged for a closer look

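Ddit3 reached 97.9 CPM in T24 among the 8 DEN tumours on the ALIOS diet, while the next tumour, T26, stood at 23.2. The gap to the nearest library was over Dixon's limit in 1 of 20 gene and group pairs checked, and chance gives about 1 in 20. T7, the single control diet tumour without DEN, entered no comparison and stood above all 12 control diet livers for Xbp1 (296 CPM), Atf3 (4.99), Trib3 (19.7) and Asns (14.3). In T1, also outside every comparison, summed kidney markers reached 30700 CPM.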

How the results depend on the processing

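The count of called genes held within 1.5 times in 38 of 47 recounts that left out no single library and moved in 9. Comparisons with 0 calls in the main fit counted as held when they stayed at 0. A limit of 2-fold could not change those, so the 38 overstates how stable the calls were. For diet in liver both calls held with DESeq2. The 2 calls became 1 with RLE size factors and 1 at 2-fold or more. They became 0 with no count filter, 0 with a mean count of at least 100 (3 of the 10 genes then not tested) and 0 with all 6 groups fitted together. Leaving out 1 liver gave 0 to 2. At 2-fold or more, 4 genes were called in tumours without DEN and 4 in DEN tumours on the ALIOS diet. The difference of diet effects had 0 calls, and 0 to 1 with 1 library left out. The numbers in the labels run separately over livers and tumours and do not pair them; with the replicate block on equal numbers, 0 genes were called in tumours without DEN (2 pairs) and 2 in DEN tumours on the ALIOS diet (4 pairs), with far fewer samples. The fold changes that lost their call under the block kept their direction: without DEN Asns was 5.0, Trib3 3.15, Atf3 2.42 and Ddit3 1.99, and with DEN Asns was 3.30 and Atf3 1.67. Deviations of equal numbers correlated at -0.2 to 0.06. Among single genes 358 values kept direction and call, 20 lost the call and 18 turned sign, all of genes not called. Under the block Hspa5 was -0.34, Herpud1 0.29 and Chac1 -0.24 without DEN, and Hspa5 -0.18 and Chac1 -0.99 with DEN on the ALIOS diet. In DEN tumours on the control diet Hspa5 was -0.024 by DESeq2, -0.020 with RLE, -0.031 with no filter and -0.042 with all groups, and Herpud1 -0.00071 by DESeq2, -0.0082 with no filter and -0.023 with all groups. Between DEN and other tumours Xbp1 was 0.0067 with no filter, 0.0041 at a mean of 100 and 0.075 with T1 kept, Dnajb9 0.028 with T1 kept and Ddit3 -0.092 by DESeq2. By DESeq2 Ddit3 was -0.32 for diet in DEN tumours. With 1 library left out, ranges crossed 0 for Ddit3 (-0.12 to 0.025) in the diet comparison in liver, Chac1 (-0.028 to 0.32) in tumours without DEN, Hspa5 (-0.33 to 0.13) and Herpud1 (-0.038 to 0.041) in DEN tumours on the control diet, Xbp1 (-0.052 to 0.056), Dnajb9 (-0.22 to 0.055), Ddit3 (-0.10 to 0.78), Trib3 (-0.011 to 0.34) and Chac1 (-0.14 to 0.30) between tumour kinds, Atf3 (-0.38 to 0.35) and Ddit3 (-0.33 to 0.68) for diet in DEN tumours, and Dnajb9 (-0.14 to 0.20), Ddit3 (-0.27 to 0.74), Trib3 (-0.34 to 0.050) and Asns (-0.73 to 0.34) for the difference of diet effects. Where no construction of the alternative explains a change, the cause was not tested. In liver, Asns rested on 6 to 85 counts a library.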
